A study of Mus musculus with 5 samples.

Results

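The genes described here are 10 core genes of the mammalian circadian clock, chosen by symbol: Clock, Arntl (also called Bmal1), Per1, Per2, Per3, Cry1, Cry2, Nr1d1, Nr1d2 and Dbp. All 10 were found among the 17657 genes of the deposited table, and all 10 passed the filter on low counts. RNA-seq libraries were made from epidermal stem cells, the progenitors of skin keratinocytes, isolated from male C57BL/6 mice labelled 8 weeks and cultured in KGM2, a keratinocyte growth medium. The 3 wild-type libraries (WT1 to WT3) were compared with the 2 libraries of Angptl4 knockout cells (KO1, KO2); Angptl4 encodes a secreted inhibitor of lipoprotein lipase. The sources used here do not give the part of the gene that the knockout allele lacks, the hour of collection, the time since the last medium change or whether libraries came from separate animals. The p-values therefore measure only the spread between these libraries, which may be technical.

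The clock is a transcriptional feedback loop. CLOCK and ARNTL bind E-box sequences as a pair and switch on the Per and Cry genes, whose proteins return to the nucleus and repress that pair. In a second loop the nuclear receptors NR1D1 and NR1D2 (REV-ERB alpha and beta), which are also E-box targets, repress Arntl, while ROR receptors activate it at the same sites. DBP, another E-box target, carries the rhythm to output genes through D-box sequences, with TEF and HLF as activators and NFIL3 as a repressor of those sites. In rhythmic tissues Arntl and the E-box targets Dbp and Nr1d1 peak at opposite times of day. Keratinocytes have a working clock that times their division and DNA repair.

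Totals ranged from 20283084 to 20773407 expected counts per library, so depth was almost equal. Angptl4 was lower in both libraries labelled KO (0.832 and 1.06 CPM, a count scaled by library size) than in the WT libraries (4.12 to 6.96 CPM), a log2 change of -2.56 ± 0.32 (SE). Of the 8 basal keratinocyte markers 3 rose (Krt15, Itgb4 and Cdh1) and 2 fell (Trp63 and Itga6, by 0.73 and 0.91 on the log2 scale). Beside this and the marker counts that follow, 20.4% of all tested genes were called higher and 20.4% lower. The 8 markers, of which Krt5 and Krt14 gave most, summed to 34934 to 36125 TPM (a level scaled by transcript length within each library) in WT and to 45354 and 35705 TPM in KO1 and KO2. The 8 fibroblast markers summed to 76.4 to 90.1 TPM in WT and to 227 and 99.7 TPM in KO1 and KO2. Most of this was Fn1 (73.8 to 87.6 TPM in WT, 202 and 90.7 in KO), which did not pass, while 3 scarcer ones rose (Col1a1, Dcn and Postn). The 5 pericyte markers found summed to 5.6 to 6.72 TPM in WT and to 24.2 and 27.2 TPM in KO. The 3 that were tested all rose. Cspg4 was at 0.05 to 0.06 TPM in WT and at 6.2 and 10.77 TPM in KO. Notch3 was at 5.38 to 6.48 TPM in WT and at 16.94 and 16.04 TPM in KO. Pdgfrb was at 0.1 TPM or less in WT and at 0.88 and 0.31 TPM in KO. Rgs5, a defining marker, and Abcc9 were too scarce to test, at most 0.07 and 0.1 TPM. The melanocyte, immune, endothelial and muscle markers summed to at most 13.2 TPM per list in any library. Among them only Mitf (melanocyte, log2 change 1.33) was called higher and only Kdr (endothelial, -1.54) lower. The immune sum differed within WT, at 10.6, 9.48 and 0.56 TPM in WT1, WT2 and WT3, and was 7.24 and 13.2 TPM in KO1 and KO2. The part of these other cell types in the clock values below was not tested, and in bulk RNA fewer cells of a type and less RNA per cell cannot be told apart. The KO libraries varied more than the WT libraries over all genes (biological coefficient of variation 28.9 against 5.22%), so each change was also fitted with a separate spread for each group.

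In the KO cells 5 of the 10 clock genes rose, namely Dbp, Nr1d1, Per3, Nr1d2 and Cry2. None fell, and Clock, Arntl, Per1, Per2 and Cry1 did not pass (edgeR's quasi-likelihood test, adjusted over all 12957 genes tested). Over all tested genes 20.4% were called higher and 20.4% lower. At an unadjusted p under 0.05 the counts were 5 higher and 1 lower, the latter being Cry1, which DESeq2 also called lower and limma-voom did not. The median log2 change of the members was 0.51, beside 0.02 over all tested genes, and the median size of the change, whatever its sign, was 0.7 beside 0.39. With a separate spread for each group 3 members passed as higher (Dbp, Nr1d1 and Nr1d2) and 0 as lower, where 12.3 and 11.2% of all genes passed. Dbp and Nr1d1 alone kept their call without WT1, without WT2 and without WT3. Fits without KO1 or without KO2 left 1 KO library, so their spread came from the WT libraries, which varied less. Passing in those fits is therefore weaker evidence than passing with both KO libraries.

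**Figure D1:**
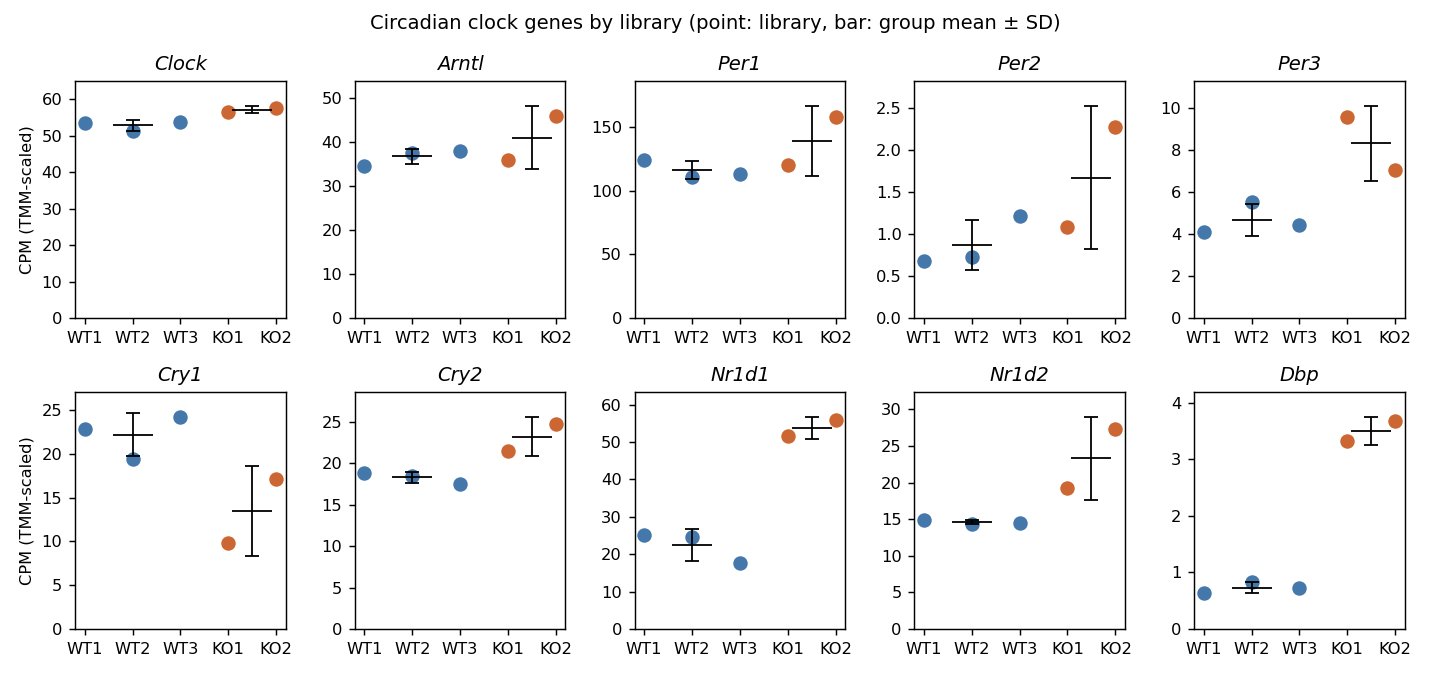
CPM (vertical axis, from 0) of the 10 clock genes in each library (points; blue WT, orange KO), with the group mean ± SD as black bars (n = 3 WT, n = 2 KO). For Dbp and Nr1d1 both KO libraries lie far above every WT library, whereas for Arntl, Per1 and Per2 KO1 lies within the WT range.

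Neither activator of the loop passed the test. Clock (NCBI gene 12753, chromosome 5, 76209868 to 76305603), a histone acetyltransferase and DNA-binding partner of ARNTL, was at 53.6, 51.2 and 53.9 CPM in the WT libraries against 56.4 (KO1) and 57.7 CPM (KO2). Both KO libraries were slightly above all WT libraries, as was the case for 32.5% of all tested genes. The log2 change of Clock was 0.11 ± 0.07 (SE), with a 95% confidence interval of -0.06 to 0.27 (adjusted p = 0.232 with edgeR).

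Arntl (gene 11865, chromosome 7, 113178471 to 113314126), whose loss alone stops the clock, was at 34.6, 37.4 and 37.9 CPM in WT against 35.8 (KO1) and 45.9 CPM (KO2). The groups overlapped: KO1 lay among the WT libraries and only KO2 above them. The log2 change was 0.16 ± 0.13 (interval -0.16 to 0.47; adjusted p = 0.358 by edgeR). Without KO2 it was -0.02, and without KO1 it was 0.31, each with the spread of the WT libraries only. The ratio of Clock to Arntl transcripts within a library (TPM) was 0.373 to 0.408 in WT and 0.418 and 0.34 in KO, so it overlapped between the groups.

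The Period genes encode the repressors whose build-up sets the length of the cycle. Per1 (gene 18626, chromosome 11, 69095108 to 69109965), which also responds rapidly to hormones and serum, was at 124, 111 and 113 CPM in WT against 120 (KO1) and 158 CPM (KO2). The groups overlapped, with KO1 inside the WT range and KO2 above it. Its log2 change was 0.26 ± 0.14 (interval -0.08 to 0.60, adjusted p = 0.172 by edgeR). The change was 0.44 without KO1 and 0.06 without KO2.

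Per2 (gene 18627, chromosome 1, 91415977 to 91459351) had the fewest counts of the members over the 5 libraries together, 54 in WT and 69 in KO. It was at 0.682, 0.725 and 1.21 CPM in WT against 1.08 (KO1) and 2.27 CPM (KO2). KO1 lay between WT2 and WT3, so the groups overlapped. The log2 change of 0.93 ± 0.45 had an interval from -0.19 to 2.06 (adjusted p = 0.149 by edgeR), so a change of that size was not detectable at this depth and spread. Without KO1 it was 1.36, and without KO2 it was 0.31.

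Per3 (gene 18628, chromosome 4, 150997018 to 151044706), a Period gene that is not required for rhythm on its own, was at 4.09, 5.51 and 4.41 CPM in WT against 9.54 (KO1) and 7.05 CPM (KO2). The counts were whole numbers. Here KO1 was the higher of the KO libraries, the opposite order to Per1 and Per2, and neither overlapped WT. Per3 rose by 0.83 ± 0.21 on the log2 scale (adjusted p = 0.031 by edgeR). A GENCODE M21 transcript of Camta1 spans Per3 on the same strand; Camta1 was at 54.8 to 57.3 CPM in WT and at 96.8 and 55.9 CPM in KO, and whether it contributes reads was not tested. The Per3 call was lost when each group had its own spread (adjusted p = 0.0749 by limma-voom; range over its alternatives 0.00211 to 0.163) and without any one WT library (log2 change 0.74, 0.96 and 0.79 without WT1, WT2 and WT3; adjusted p = 0.115, 0.0617 and 0.111 by edgeR).

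The cryptochromes, the strongest repressors of CLOCK and ARNTL, moved to opposite sides of WT, Cry1 without passing the test. Cry1 (gene 12952, chromosome 10, 85131700 to 85185054) was at 22.9, 19.4 and 24.2 CPM in WT against 9.83 (KO1) and 17.1 CPM (KO2). It was the one member with both KO libraries below every WT library, as were 34.0% of all tested genes, and KO1 and KO2 stood 0.80 apart on the log2 scale. The log2 change was -0.72 ± 0.25 (interval -1.35 to -0.08, not adjusted for the number of genes), which did not pass after adjustment (adjusted p = 0.0727 by edgeR). It passed with DESeq2 (adjusted p = 0.0323), without KO1 (log2 change -0.38, adjusted p = 0.0415 by edgeR) and without KO2 (log2 change -1.16, adjusted p = 0.000389 by edgeR; range over its alternatives 0.000389 to 0.191). With 1 KO library left, the spread was taken from the WT libraries.

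Cry2 (gene 12953, chromosome 2, 92403646 to 92434085) was at 18.8, 18.5 and 17.5 CPM in WT against 21.5 (KO1) and 24.8 CPM (KO2). Both KO libraries were above WT, by a small margin; the counts were not whole in 4 of 5 libraries, and GENCODE M21 places the noncoding gene D930015M05Rik on the opposite strand within Cry2. The log2 rise was 0.34 ± 0.10 (adjusted p = 0.0455 by edgeR), just past the threshold, and the call was lost when each group had its own spread (adjusted p = 0.171 by limma-voom; range over its alternatives 0.00427 to 0.27) and with any one WT library left out (adjusted p = 0.131, 0.133 and 0.154 by edgeR). Within each library the ratio of Cry1 to Cry2 transcripts (TPM) was 1.57, 1.21 and 1.76 in WT and 0.6 and 0.915 in KO1 and KO2. Cry1 was thus the more abundant cryptochrome in every WT library and the less abundant in both KO libraries; this ratio was set up after the members' changes were known and was not tested.

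**Figure D2:**
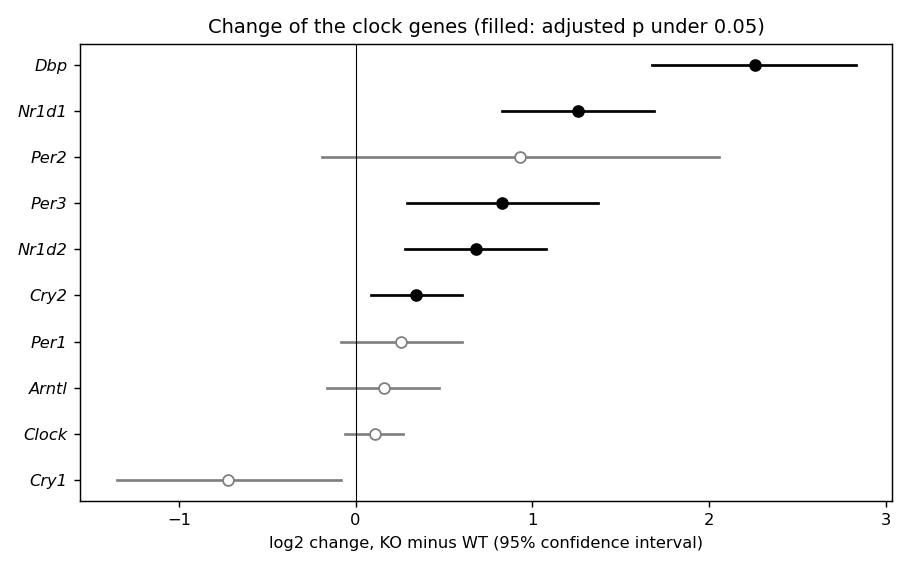
Log2 change of each clock gene, KO minus WT (horizontal axis), with its 95% confidence interval from edgeR's fit, not adjusted for the number of genes; filled points passed at an adjusted p under 0.05. Dbp and Nr1d1 lie farthest from 0 among the filled points, at 2.26 and 1.26, and Cry1 is the only gene on the negative side.

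The repressors of the second loop both rose. Nr1d1 (gene 217166, chromosome 11, deposited span 98767932 to 98782952, where RefSeq ends the gene at 98775377) was at 25.1, 24.5 and 17.5 CPM in WT against 51.6 (KO1) and 55.8 CPM (KO2). The KO libraries were close to each other (0.11 apart on the log2 scale, where the WT libraries spanned 0.52) and both were at more than the highest WT value. Nr1d1 rose by 1.26 ± 0.17 on the log2 scale, a 2.4-fold change (adjusted p = 0.00547 by edgeR), and it passed in all 16 alternatives (adjusted p = 2.87e-08 to 0.0334, log2 change 1.11 to 1.35).

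The 3′ end of Nr1d1 overlaps that of Thra, the thyroid hormone receptor alpha gene on the opposite strand, over 1075 bases in the annotation. All 5 deposited Nr1d1 counts were not whole numbers, so reads were divided with another gene or locus. Thra was at 28.1, 37.4 and 33.2 CPM in WT and at 79.1 and 68.9 CPM in KO. Its log2 rise was 1.17 ± 0.14 (adjusted p = 0.00413 by edgeR). The ratio of Nr1d1 to Thra (TPM) was 0.766 to 1.35 in WT and 0.944 and 1.16 in KO, with overlapping groups. The sources used here do not give the strand setting of the counting, so how much of the rise belongs to each of these genes cannot be told apart.

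Nr1d2 (gene 353187, chromosome 14, 18204056 to 18239106), the close relative of Nr1d1, has no such overlap, and its counts were whole numbers in all libraries. It was at 14.9, 14.4 and 14.5 CPM in WT against 19.3 (KO1) and 27.3 CPM (KO2). The WT libraries were nearly identical, both KO libraries were above them, and KO2 was 0.50 above KO1 on the log2 scale. The log2 rise was 0.68 ± 0.16, or 1.6-fold (adjusted p = 0.0237 by edgeR, and adjusted p = 0.0337 by limma-voom when each group had its own spread). With WT1, WT2 or WT3 left out it no longer passed (adjusted p = 0.088, 0.0889 and 0.0887 by edgeR), although the log2 change stayed at 0.67 to 0.69. The change was 0.90 without KO1 and 0.42 without KO2.

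Dbp (gene 13170, chromosome 7, 45705100 to 45710203) rose most. It was at 0.633, 0.822 and 0.728 CPM in WT, from 45 counts in all, against 3.33 (KO1) and 3.67 CPM (KO2), from 144 counts. The KO libraries differed by only 0.14 on the log2 scale and both stood far above WT. Dbp rose by 2.26 ± 0.23 on the log2 scale (interval 1.68 to 2.83), a 4.78-fold change (adjusted p = 0.00321 by edgeR). It passed in all 15 alternatives that kept the gene (adjusted p = 6.98e-08 to 0.0366, log2 change 1.47 to 2.35, lowest on TPM with a pseudocount); the stricter count filter removed it. The last 737 bases of Dbp overlap the end of Sphk2, a sphingosine kinase gene on the opposite strand, and all 5 Dbp counts were not whole. Sphk2 was at 70.1 to 76.8 CPM in WT and at 87.3 and 140 CPM in KO (log2 change 0.64 ± 0.20, adjusted p = 0.0519 by edgeR). The ratio of Dbp to Sphk2 (TPM) was 0.0152 to 0.0174 in WT and 0.0618 and 0.0432 in KO, so the ratio was higher in KO. The Dbp counts in this ratio may include reads of Sphk2. Without the strand setting of the counting, how much of the Dbp rise belongs to each of these genes cannot be told apart.

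Relative to Arntl, the E-box targets Nr1d1, Dbp and Nr1d2 were higher in both KO libraries. The ratio of Nr1d1 to Arntl (TPM) was 0.682, 0.637 and 0.439 in WT and 1.36 and 1.16 in KO1 and KO2. That of Dbp to Arntl was 0.0309, 0.036 and 0.0294 in WT and 0.147 and 0.131 in KO, and that of Nr1d2 to Arntl 0.216 to 0.238 in WT and 0.3 and 0.336 in KO. None of these 3 ratios, taken for members that had risen, overlapped between the groups. In CPM, both KO libraries were above every WT library for 32.5% of all tested genes. Per1 and Per2 are E-box targets too. Their CPM overlapped between the groups, and their ratios to Arntl were not taken. The ratio of Per3, another member that rose, to Arntl did overlap. It was 0.0532, 0.0677 and 0.0507 in WT and 0.114 and 0.0669 in KO1 and KO2. These ratios repeat the rises above on a scale that cancels the library size, and were not tested separately. Cry1 went the other way, at 0.57, 0.461 and 0.556 of Arntl in WT and 0.236 and 0.327 in KO.

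**Figure D3:**
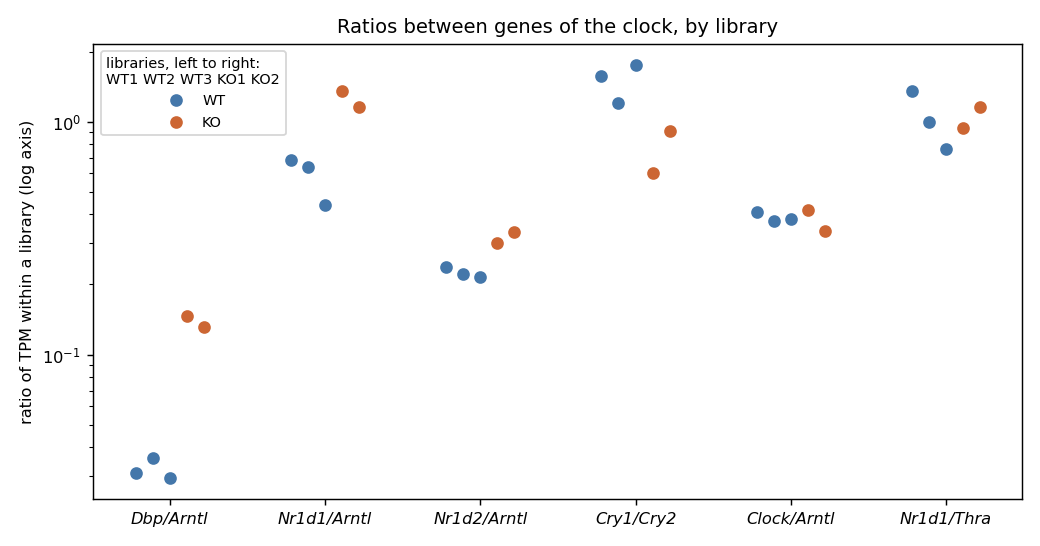
Ratios of TPM between pairs of genes within each library (logarithmic vertical axis; points from left to right WT1, WT2, WT3 in blue and KO1, KO2 in orange). Dbp, Nr1d1 and Nr1d2 relative to Arntl are higher in both KO libraries and Cry1 relative to Cry2 is lower, while Clock to Arntl and Nr1d1 to Thra overlap.

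On the scale per transcript length, Per1 was the most abundant member in both groups, at 48.8 ± 2.85 TPM (SD, n = 3) in WT and 57.7 ± 11.5 TPM (SD, n = 2) in KO. In WT it was followed by Arntl (27.6 ± 1.06 TPM), Nr1d1 (16.1 ± 3.09), Cry1 (14.6 ± 1.61), Clock (10.7 ± 0.28), Cry2 (9.72 ± 0.779), Nr1d2 (6.21 ± 0.0964), Per3 (1.58 ± 0.261), Dbp (0.887 ± 0.0987) and Per2 (0.297 ± 0.0987 TPM). The ranges of Nr1d1 and Cry1, and of Clock and Cry2, overlapped, so their order within WT is not resolved. In KO Nr1d1 (38.1 ± 2.21 TPM) stood above Arntl (30.5 ± 5.05), Dbp (4.21 ± 0.361) above Per3 (2.68 ± 0.566), and Cry1 (8.76 ± 3.38 TPM) came after Clock, Cry2 and Nr1d2, whose ranges overlapped with their neighbours in that order. Per2 was last in both groups (0.58 ± 0.297 TPM in KO).

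The KO libraries differed from each other by a median of 0.379 on the log2 scale over the 10 members, beside 0.285 over all tested genes. For Clock, Nr1d1 and Dbp the KO libraries were at most 0.14 apart. Per2 (1.01), Cry1 (0.80), Nr1d2 (0.50), Per1 (0.40), Arntl (0.36) and Cry2 (0.21) were higher in KO2, and Per3 was the one member lower in KO2 (-0.43).

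Sequences before the transcription starts were searched for the elements through which the loop acts, in RefSeq windows of build GRCm38.p6 covering the 250 bases before each start. Windows were available for 9 of the 10 members (13 windows; not Per2). The elements were the E-box (CACGTG), the E-prime box (CACGTT), the D-box (TTATGTAA or TTACGTAA) and the core of the ROR and REV-ERB element (TAGGTCA or TGGGTCA), on both strands, and none of these words contains another. Over all 32851 windows these were found in 6.02, 3.85, 0.931 and 5.38%. Counted by gene, as the members are below, they were found for 6.86, 4.5, 1.1 and 6.15% of 27025 genes. Among the members an E-box was found before Cry1 and Per1, an E-prime box before Cry1, Cry2 and Nr1d1, a D-box before Per3, and the ROR core before none. For 3 of them the matches are given in capitals with 20 bases on each side: Nr1d1 and Per3, which rose, and Cry1, the one member on the low side. All run 5′ to 3′ on the minus strand, at chr11:98775380-98775425, chr4:151044796-151044890 and chr10:85185089-85185153.
Nr1d1: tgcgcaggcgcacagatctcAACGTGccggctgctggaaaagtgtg
Per3: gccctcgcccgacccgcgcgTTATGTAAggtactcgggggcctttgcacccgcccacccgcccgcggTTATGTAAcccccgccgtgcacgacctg
Cry1: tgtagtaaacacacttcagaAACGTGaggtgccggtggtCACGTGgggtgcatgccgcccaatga
The Nr1d1 match is an E-prime box that begins 28 bases before the RefSeq start, inside the longer deposited span (AACGTG, the reverse complement of CACGTT). Per3 carried 2 D-boxes, as 7 of the 32851 windows did. Cry1 carried an E-prime box and an E-box, a pair found in 0.301% of windows. So E-box or E-prime box letters preceded genes that rose (Nr1d1, Cry2), one that was lower in both KO libraries (Cry1) and one that did not pass (Per1), and were absent from this window of Dbp and Nr1d2. A match is a description of letters and not a bound site, and elements outside these windows were not searched.

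Beyond the 10 members, 35 further genes of the clock pathway were counted, and all 35 were tested. Of these 5 rose, 8 fell and 22 did not pass, beside 20.4% higher and 20.4% lower over all genes, with a median log2 change of -0.06. The 5 that rose were Arntl2, Nfil3, Tef, Kat2b and Klf9. The 8 that fell were Hlf, Csnk2a1, Nono, Sfpq, Wdr5, Timeless, Sirt1 and Wee1. With a separate spread per group 4 rose and 5 fell, beside 12.3% higher and 11.2% lower over all genes.

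The factors that share the D-box with DBP did not move together. Tef, a relative of Dbp, was at 19.6, 20.7 and 22.5 CPM in WT against 48.5 (KO1) and 38.7 CPM (KO2). The log2 rise was 1.06 ± 0.13 (adjusted p = 0.00413 by edgeR). Hlf, the third relative, went the other way, from 4.38, 4.01 and 2.62 CPM in WT to 0.44 and 1.26 CPM in KO. Its log2 change was -2.10 ± 0.50 (adjusted p = 0.0238 by edgeR). Neither gene overlapped between the groups. Over all tested genes, both KO libraries were above every WT library for 32.5% and below for 34.0%. With WT1, WT2 or WT3 left out Hlf no longer passed (adjusted p = 0.087, 0.0829 and 0.0543 by edgeR; range over its alternatives 0.000591 to 0.087), and Tef passed in all 16 alternatives.

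Nfil3, which represses the D-box sites that DBP, TEF and HLF activate, was at 22.7, 18.5 and 17.5 CPM in WT against 48.7 (KO1) and 81.3 CPM (KO2). Both KO libraries were well above WT. Nfil3 rose by 1.73 ± 0.24 on the log2 scale, a 3.32-fold change (adjusted p = 0.00571 by edgeR), and it passed in all 16 alternatives. An activator of the D-box (Dbp) and its repressor (Nfil3) were thus both higher in the same libraries.

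Among the activators outside the 10 members, Arntl2, the paralog of Arntl, was at 26.5 to 30.3 CPM in WT and at 41.5 and 38.3 CPM in KO (log2 rise 0.48 ± 0.09, adjusted p = 0.0142 by edgeR). Npas2, the paralog of Clock, was at 0.731 to 1.21 CPM in WT and at 1.76 and 1.98 CPM in KO and did not pass (adjusted p = 0.0726 by edgeR). Rora, a nuclear receptor that activates Arntl, was at 9.84 to 13.6 CPM in WT and at 14.5 and 21.5 CPM in KO and did not pass (adjusted p = 0.063 by edgeR). The Arntl2 call was lost when each group had its own spread (adjusted p = 0.0806 by limma-voom) and with any one WT library left out (adjusted p = 0.0503 to 0.0685 by edgeR; range over its alternatives 0.00106 to 0.114).

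Other repressors of CLOCK and ARNTL differed between the KO libraries. Bhlhe40 (DEC1), which competes for E-boxes, was at 186, 181 and 156 CPM in WT against 444 (KO1) and 148 CPM (KO2). Ciart (CHRONO), which binds ARNTL, was at 6.87, 8.13 and 6.74 CPM in WT against 4.65 (KO1) and 14.1 CPM (KO2). For each gene the KO libraries lay on opposite sides of the WT libraries, and neither passed (adjusted p = 0.209 and 0.541 by edgeR). Without KO1 the log2 change of Bhlhe40 was -0.24 and that of Ciart 0.95, and without KO2 they were 1.36 and -0.63. Bhlhe41 (DEC2) was scarce, at 0.242 to 0.291 CPM in WT and at 0.489 and 0.628 CPM in KO (adjusted p = 0.0566 by edgeR).

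**Figure D4:**
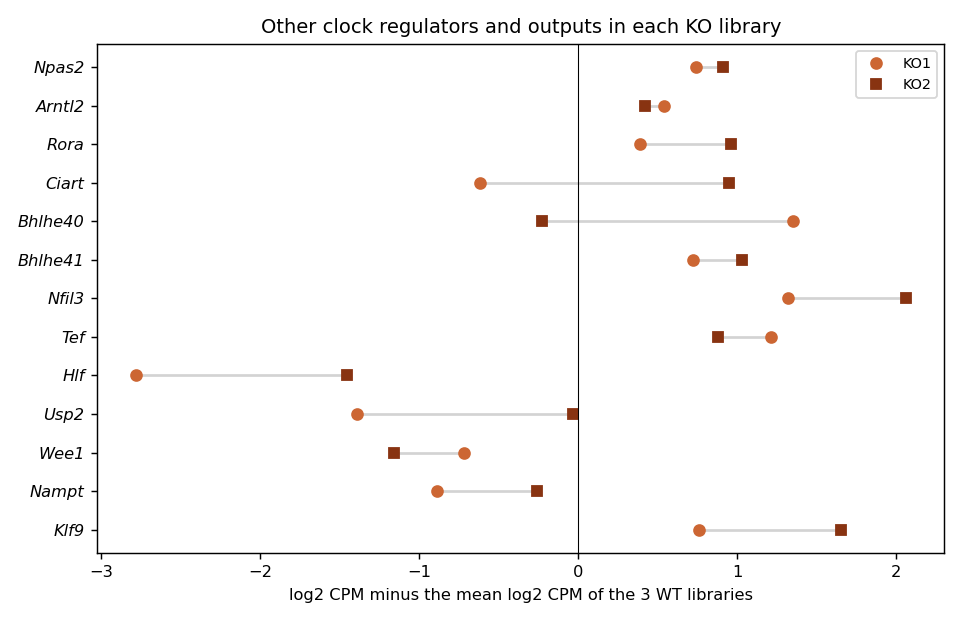
Log2 CPM of 13 other regulators and outputs of the clock in KO1 (circles) and KO2 (squares), each minus the mean of the 3 WT libraries (horizontal axis; prior count 2). Nfil3, Tef and Klf9 are above 0 and Hlf and Wee1 below 0 in both KO libraries, while Bhlhe40 and Ciart lie on opposite sides of 0 in KO1 and KO2.

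The 4 listed partners of the PER complex all fell, beside 20.4% of all genes called lower: Timeless (log2 change -1.45 ± 0.09, from 31.6 to 31.9 CPM in WT to 12.0 and 11.3 CPM in KO), Sfpq (-0.86 ± 0.12), Nono (-0.55 ± 0.10) and Wdr5 (-0.46 ± 0.11; adjusted p = 0.00128, 0.00541, 0.0109 and 0.0233 by edgeR). Each of these also has a general role outside the clock, Timeless at replication forks, Sfpq and Nono in RNA processing and Wdr5 in histone methylation. Timeless and Sfpq passed in all 16 alternatives; Nono and Wdr5 did not when each group had its own spread (adjusted p = 0.0699 and 0.0579 by limma-voom) or with any one WT library left out (adjusted p = 0.0521 to 0.0616 and 0.0795 to 0.09 by edgeR; over all alternatives 2.08e-05 to 0.113 and 0.000147 to 0.111).

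Counted next were 10 kinases and other genes that set how long PER and CRY last. Beside the 20.4% called lower and 20.4% called higher over all genes, only Csnk2a1 passed. It changed by -0.25 ± 0.07 on the log2 scale (adjusted p = 0.0426 by edgeR), and the call was lost when each group had its own spread (adjusted p = 0.273 by limma-voom; range over its alternatives 0.00476 to 0.273) and with any one WT library left out (adjusted p = 0.169, 0.14 and 0.11 by edgeR). Csnk1d, a main PER kinase, was at 241 to 246 CPM in WT and at 231 and 242 CPM in KO, with a log2 interval of -0.22 to 0.14. Usp2 differed between the KO libraries and did not pass (adjusted p = 0.288 by edgeR). Its level was 20.5 to 23.9 CPM in WT, 8.32 CPM in KO1 and 21.5 CPM in KO2. Of the 6 cofactors Kat2b, an acetyltransferase that works with CLOCK, rose by 0.75 ± 0.12 (adjusted p = 0.00815 by edgeR) and Sirt1, a deacetylase of ARNTL and PER2, changed by -0.65 ± 0.10 (adjusted p = 0.00683). The Kat2b call was lost without WT1 (adjusted p = 0.0506 by edgeR, range over its alternatives 4.36e-05 to 0.052). A fit that paired libraries by replicate number lost the calls of both Kat2b and Sirt1 (adjusted p = 0.052 and 0.0661 by edgeR).

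Outputs of the clock went in different directions. Klf9, a clock-timed brake on keratinocyte division, was at 11.5, 12.6 and 12.2 CPM in WT against 20.5 (KO1) and 38.2 CPM (KO2). The log2 rise was 1.28 ± 0.26 (adjusted p = 0.0161 by edgeR). With WT1, WT2 or WT3 left out it no longer passed (adjusted p = 0.0731, 0.0639 and 0.0679 by edgeR; range over its alternatives 5.43e-06 to 0.0731), and without KO2 the log2 change was 0.77. Wee1, the E-box target that delays mitosis, was lower, at 76.0, 69.1 and 66.6 CPM in WT and at 42.8 and 31.5 CPM in KO (log2 change -0.93 ± 0.15, adjusted p = 0.00828 by edgeR), and passed in all 16 alternatives. Nampt, the rate-limiting enzyme of NAD salvage, is also an E-box target. It was at 48.5 to 53.6 CPM in WT and at 27.7 and 42.8 CPM in KO. It did not pass (adjusted p = 0.0726 by edgeR), but passed as lower with DESeq2 (adjusted p = 0.0382). Its log2 change was -0.27 without KO1 and -0.88 without KO2. Both KO libraries were below WT for Wee1 and Nampt, and above WT for the E-box targets Dbp, Nr1d1 and Nr1d2. Of the Per and Cry genes, Per3 and Cry2 were also above WT and Cry1 below it, while Per1 and Per2 overlapped WT. Over all tested genes 34.0% lay below every WT library in both KO libraries and 32.5% above.

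Glucocorticoids reset the clock in skin cells and induce Per1, so 6 genes of that response were followed. Of these 2 rose and 4 did not pass, beside 20.4% called higher over all genes. Sgk1, a kinase, was at 23.2 to 26.3 CPM in WT and at 117 and 108 CPM in KO (log2 rise 2.22 ± 0.09, adjusted p = 0.000546 by edgeR), and the transcription factor Zbtb16 rose by 1.31 ± 0.28 (adjusted p = 0.018 by edgeR), a call lost without WT1 or WT2 (adjusted p = 0.0722 and 0.0728 by edgeR; range over its alternatives 0.000153 to 0.0728). Dusp1, a phosphatase gene, was at 91.0, 79.0 and 32.9 CPM in WT and at 24.1 and 53.8 CPM in KO. Its log2 change of -0.80 ± 0.53 did not pass (adjusted p = 0.277 by edgeR). This change was -0.34 without KO1 and -1.48 without KO2. The receptor Nr3c1 was at 59.3 to 64.1 CPM in WT and at 33.2 and 53.5 CPM in KO. It did not pass (adjusted p = 0.106 by edgeR), and its log2 change was -0.20 without KO1 and -0.87 without KO2. Tsc22d3 and Fkbp5, targets of the receptor, were at 42.9 and 29.6 CPM in KO1, below every WT library (47.9 to 51.2 and 30.4 to 35.6 CPM). In KO2 they were at 81.6 and 54.0 CPM, above every WT library. Per1 also had KO2 above the WT range, but KO1 lay within it. Of the 6 genes only Sgk1 was higher in KO1 than in KO2.

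The genes whose pattern over the 5 libraries was most like that of Dbp were Mmp2, Sp140 and Fbxo32. Likeness was the root mean square difference of log2 CPM, each gene taken relative to its WT mean, and was 0.101, 0.134 and 0.161 among 11157 genes compared; 11 genes lay within 0.2 of Dbp. For Arntl the nearest were Ddx28, Dda1 and U2af1l4 (0.0127, 0.0195 and 0.0207), but 2652 genes lay within 0.2, so the nearly flat pattern of Arntl was shared by many.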

How the data were processed

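The table deposited by the authors lists 17657 genes. Its expected counts were made by the authors with RSEM 1.3.1 on GRCm38.p6, per the submitters' processing notes. Its TPM columns, named so per the file headers, sum to the same total in each library; the deposited FPKM columns were not used. The sources used here do not give the aligner or the strand setting. Coordinates are the deposited ones; the deposited strand differs from GENCODE M21 for Per3 and Nr1d1, and the GENCODE strand was used.

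Rounded counts were fitted with edgeR 4.0.16 under R 4.3.3 (filterByExpr by group, TMM factors of 0.988 to 1.02, quasi-likelihood test, two-sided, Benjamini-Hochberg over 12957 genes, threshold 0.05, no covariate). CPM uses library totals and TMM factors, so 1 CPM is about 20 counts. The separate-spread fit used limma 3.58.1, with a voom trend and weight per group; DESeq2 was 1.42.0. The edgeR fit was checked on counts simulated with the same small spread in both groups, with changes only in genes above a minimum count. That check does not cover the wider spread of the KO libraries or scarce genes such as Per2 and Dbp. Counts of any WT pair differed by more than sampling noise (chi-square per degree of freedom 3.33 to 6.18; KO pair 101), and all libraries were kept as separate. The members, lists, ratios and rules were chosen with earlier results of these data known. Named are all members, every pathway gene that passed, Npas2, Rora, Bhlhe40, Bhlhe41, Ciart and Angptl4. Up to 3 glucocorticoid genes by smallest p, and the nearest 3 genes by pattern for Dbp and Arntl, are also named. The markers, Csnk1d, Usp2, Nampt, Dusp1, Fkbp5, Tsc22d3, Nr3c1 and overlapping genes were named after their values were seen. Another 2 pathway genes were left out of every list count and are not reported here.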

Additional observations from a re-analysis of the deposited data

How the results depend on the processing

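Dbp and Nr1d1 passed in every alternative that kept them, and DESeq2's size factors, library totals and limma-voom changed no member's call. All genes called numbered 5286, against 3053 with a separate spread per group, 1580 with the replicate block and 1957 to 8068 with 1 library left out. Members called higher numbered 5, against 3 with a separate spread, 2 with the replicate block, 2 on log2(TPM + 1), 2 on log2(TPM + 0.1), 3 on log2(TPM + 1) with a mean TPM of at least 1, and 2 to 8 with 1 library left out. Members called lower numbered 0, against 1 with DESeq2 and 0 to 1 with 1 library left out. For the pathway list, 5 higher became 3 with the replicate block and 2 to 10 with 1 library left out, and 8 lower became 5 with a separate spread, 3 with the replicate block and 4 to 14. With 1 library left out, signs reversed for Arntl (-0.02 without KO2, 0.31 without KO1), Bhlhe40 (-0.24 without KO1, 1.36 without KO2), Ciart (-0.63 without KO2, 0.95 without KO1), Fkbp5 (-0.14 without KO2, 0.70 without KO1) and Tsc22d3 (-0.21 without KO2, 0.70 without KO1). The cause of these changes was not tested, beyond the smaller number of libraries. Same-numbered WT and KO libraries did not deviate together (correlations of deviations 0.00714 and 0.0676), so the replicate block pairs by number only. Under it the members Per3, Cry2 and Nr1d2 lost their calls (adjusted p = 0.163, 0.27 and 0.104 by edgeR). So did Arntl2, Hlf, Csnk2a1, Nono, Wdr5, Kat2b and Sirt1 (adjusted p = 0.114, 0.0505, 0.251, 0.113, 0.111, 0.052 and 0.0661 by edgeR). Depth limits Per2 and Dbp most, at 0.633 to 3.67 CPM.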
